A study of Rattus norvegicus with 20 samples.

Results

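The ATP-binding cassette (ABC) transporter family was read in the circulating blood cells of 2 inbred rat strains on 2 diets. Its members were the genes with an annotated symbol starting with *Abca* to *Abcg*, each read by its probe set of the highest mean, provided that the probe set carried no other symbol. This gave 43 of the 14497 genes with such a probe set, namely 10 of subfamily A, 8 of B, 10 of C, 3 of D, 1 of E, 3 of F and 8 of G. RefSeq lists 54 rat genes with such symbols, and 11 of them were not analysed here. Of the 43 members, 22 passed a filter on low signal, which was not applied in the main comparisons.

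Male Wistar Kyoto (WKY/NCrl) and Lewis (LEW/Crl) rats, 15 weeks old, had eaten a cafeteria diet (CAF), an energy-dense diet of palatable human foods, or standard chow (STD) for 7 weeks and were fasted for 9 h before blood was taken. The 4 groups were WKY rats on CAF, LEW rats on CAF, WKY rats on STD and LEW rats on STD, with 5 rats in each, and the labels name no transgene or drug. In the labels the cells are peripheral blood mononuclear cells, and in the methods they are monocytes obtained by adherence. The study asked how the strains differ on CAF and how CAF changes the blood cell transcriptome within each strain.

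ABC proteins bind and hydrolyse ATP, and most of them use that energy to carry lipids, peptides, drugs or conjugated metabolites across membranes. Members of subfamilies E and F lack membrane-spanning domains and act at the ribosome instead. In monocytes and macrophages the family is best known for cholesterol efflux: *Abca1* passes cholesterol and phospholipid to lipid-poor apolipoprotein A-I, *Abcg1* passes cholesterol to high-density lipoprotein, and both genes are induced by the liver X receptors (LXRs) when sterols build up.

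The reference promoters of the 3 members that were higher in WKY rats on both diets are shown first. They are RefSeq sequences of assembly GRCr8, made from Brown Norway rats and neither of the strains studied, and run 5′ to 3′ along the gene from 250 bases before to 50 after the annotated start. Capitals mark each match on either strand to an E-box (CACGTG), a GC box (GGGCGG) or a TATA box (TATAAA). The windows lie at chr5:72596424-72596723 on the minus strand for *Abca1*, chr14:5069300-5069599 on the plus strand for *Abcg3* and chr14:5481827-5482126 on the minus strand for *Abcg3l1*.
Abca1: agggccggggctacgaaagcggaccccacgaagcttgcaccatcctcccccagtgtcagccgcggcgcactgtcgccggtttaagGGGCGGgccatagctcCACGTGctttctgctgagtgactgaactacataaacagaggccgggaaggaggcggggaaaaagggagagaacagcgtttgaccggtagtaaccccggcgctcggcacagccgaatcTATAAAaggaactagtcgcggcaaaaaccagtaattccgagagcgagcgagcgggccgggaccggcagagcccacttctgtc
Abcg3: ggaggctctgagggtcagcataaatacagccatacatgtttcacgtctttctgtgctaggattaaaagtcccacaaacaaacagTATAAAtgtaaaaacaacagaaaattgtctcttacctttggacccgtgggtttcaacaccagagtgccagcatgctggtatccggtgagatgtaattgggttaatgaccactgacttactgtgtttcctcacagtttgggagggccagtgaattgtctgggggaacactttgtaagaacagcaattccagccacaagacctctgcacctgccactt
Abcg3l1: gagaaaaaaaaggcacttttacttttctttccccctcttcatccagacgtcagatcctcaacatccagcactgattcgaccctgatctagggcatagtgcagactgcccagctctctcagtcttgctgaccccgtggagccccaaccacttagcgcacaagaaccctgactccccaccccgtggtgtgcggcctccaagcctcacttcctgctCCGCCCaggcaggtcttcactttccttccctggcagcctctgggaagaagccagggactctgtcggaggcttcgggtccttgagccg

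In the *Abca1* window the TATA box began 32 bases, the E-box 149 bases and the GC box 165 bases before the start. This window was rich in CG pairs (27, with 61% G and C), against 10 pairs in that of *Abcg3l1* and 3 in that of *Abcg3*. Over the 35 members with a promoter in the table, the GC box was found in 23 (65.7%), against 34.9% of all 27457 promoters, and the E-box in 4 (11.4%), against 6.65%. The TATA box was found in 5 (14.3%), against 14.3%, and the nuclear receptor motif AGGTCA in 6 (17.1%), against 15.7%. The promoters of *Abcg3* and *Abcg3l1* were identical at 45.5% of aligned positions, and those of *Abcg3l1* and *Abcg3l3* at 70.3%. The share for unrelated promoters aligned in this way was not tested. The whole *Abcg3* window lies within the RefSeq bounds of that gene (5068275 to 5143762), so it does not cover the outermost start. The median content of G and C was 58.7% over the member promoters and 52.3% over all promoters.

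The deposited values are log2 signals, so a difference of 1 log2 unit is a doubling of signal. They ran from 3.57 to 14.37, the array medians lay between 6.83 and 6.90, and the mean correlation of arrays within a group was 0.994 to 0.997. Monocyte markers (13 of 15 measured) had a mean log2 signal of 10.44 to 10.90 in WKY rats on CAF, 10.79 to 11.11 in LEW rats on CAF, 10.76 to 11.10 in WKY rats on STD and 10.89 to 11.13 in LEW rats on STD. WKY rats had 1 of these markers higher and 4 lower on CAF, and 3 higher and 4 lower on STD. Markers of other blood cells were also measured, and calls between the strains were found in several of their lists. Of the 11 erythroid markers, WKY rats had 1 higher and 3 lower on CAF, and 1 higher and 2 lower on STD. The log2 of their summed signal was 13.20 to 14.12 in WKY rats on CAF, against 14.02 to 14.76 in LEW rats on CAF, and 13.24 to 14.16 in WKY rats on STD, against 13.03 to 14.61 in LEW rats on STD. Of the 10 T cell markers, 2 were lower in WKY rats on CAF and 3 on STD, of the 4 platelet markers 0 on CAF and 2 on STD, and of the 5 B cell markers 0 on CAF and 1 on STD. Of the 8 natural killer (NK) cell markers, 6 were higher and 1 lower in WKY rats on CAF, and 7 were higher and 1 lower on STD. The log2 of their summed signal was 13.71 to 13.94 in WKY rats on CAF, against 12.79 to 13.37 in LEW rats on CAF, and 13.73 to 14.17 in WKY rats on STD, against 12.96 to 13.49 in LEW rats on STD, so the strains did not overlap. Of the 11 neutrophil markers, 5 were higher in WKY rats on CAF and 8 on STD, with log2 sums of 12.92 to 13.99 in WKY rats on CAF, against 11.89 to 13.26 in LEW rats on CAF, and of 12.95 to 14.62 in WKY rats on STD, against 11.58 to 12.35 in LEW rats on STD. In such bulk samples fewer cells of a type and less RNA per cell cannot be told apart. A marker level that does not overlap between the strains cannot, as a covariate, be told apart from the strain. This holds below for the NK level on both diets and the neutrophil level on STD, whether a call is kept or lost. It nearly holds for the platelet level on STD. As the mean used for the covariate, that level was 11.998 to 12.203 in WKY rats, against 12.198 to 12.915 in LEW rats. Its log2 sum did not overlap (14.13 to 14.31 in WKY rats on STD, against 14.32 to 14.96 in LEW rats on STD). The mean log2 signal of 10 heat shock genes stood above the rest in 4 arrays (10.82 to 11.47, against at most 10.19), namely LEW rats 2 and 3 on STD, WKY rat 1 on STD and LEW rat 2 on CAF.

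The comparison of the strains on CAF asks which members differ with the genotype under the obesogenic diet. The lipid efflux transporter *Abca1* differed most, at 3.44 times the signal in CAF-fed WKY rats, followed by *Abcg3* and *Abcg3l1*, which stood about 1.5-fold higher. The other lipid efflux transporter, *Abcg1*, was higher by only 0.16 log2 units, and *Abcc2*, which exports conjugates such as bilirubin glucuronide into bile, was lower. In all, 5 of 43 members (11.6%) passed an adjusted *P* of 0.05 in limma, against 7.58% of all probe sets (9.07% of those with 1 symbol). Of these 4 were higher in WKY rats, as were 4.24% of all probe sets, and 1 was lower, as were 3.34%. Among the 21 members with a mean above the median of all values, 2 passed (9.52%), against 12.3% of all such probe sets. The share of members called therefore lay near that of the array as a whole.

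On STD the strain comparison asks for the same difference without the obesogenic diet. Here 6 of 43 members (14.0%) passed, against 11.3% of all probe sets (13.8% of those with 1 symbol), 5 of them higher (5.88%) and 1 lower (5.38%). Among the 21 members above the median, 2 passed (9.52%), against 18.1%. *Abca1*, *Abcg3*, *Abcg3l1*, *Abcg2* (an exporter of urate and many drugs) and *Abcc8* (the sulphonylurea receptor of ATP-sensitive potassium channels) were higher in WKY rats, and *Abcf2*, of the ribosome-associated subfamily F, was lower. The groups did not overlap for 3 members (*Abca1*, *Abcf2* and *Abcg3l1*), against 8.46% of all probe sets, and on CAF for 5 members (*Abca1*, *Abca5*, *Abcc2*, *Abcg3* and *Abcg3l1*), against 7.80%.

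*Abca1* read 11.02, 11.13, 10.74, 10.71 and 10.91 log2 units in the 5 CAF-fed WKY rats, against 9.36, 9.02, 8.93, 9.15 and 9.13 in the 5 CAF-fed LEW rats. On STD it read 11.01, 11.03, 11.05, 10.91 and 10.85 in WKY rats, against 9.31, 9.18, 9.18, 8.71 and 9.10 in LEW rats. Every WKY rat stood above every LEW rat, with a gap of more than 1 log2 unit between the lowest WKY and the highest LEW value. The means were 10.90±0.18 in WKY rats on CAF, 9.12±0.16 in LEW rats on CAF, 10.97±0.09 in WKY rats on STD and 9.10±0.23 in LEW rats on STD (SD, *n*=5 each). The strain difference was 1.78 on CAF (95% interval 1.57 to 2.00, adjusted *P*=2.33e-10 in limma) and 1.88 on STD (3.67-fold, 1.66 to 2.09, adjusted *P*=1.07e-10). It passed in all 36 alternatives that were run, with 1.66 to 2.06 on CAF and 1.71 to 2.24 on STD. Those with the NK or the neutrophil marker level as a covariate are among them. The NK level did not overlap between the strains on either diet, nor did the neutrophil level on STD. In those fits the level and the strain cannot be told apart.

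Diet did not move *Abca1* detectably in either strain. CAF differed from STD by −0.07 in WKY rats (95% interval −0.28 to 0.14, adjusted *P*=0.894 in limma) and by 0.02 in LEW rats (−0.19 to 0.23, adjusted *P*=0.994). The diet effect of WKY rats minus the diet effect of LEW rats was −0.09 (−0.39 to 0.21, adjusted *P*=0.950). Ordered by mean, the groups ran from WKY on STD and WKY on CAF down to LEW on CAF and LEW on STD, and the only neighbours apart by more than their spread were those of different strains.

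**Figure D1:**
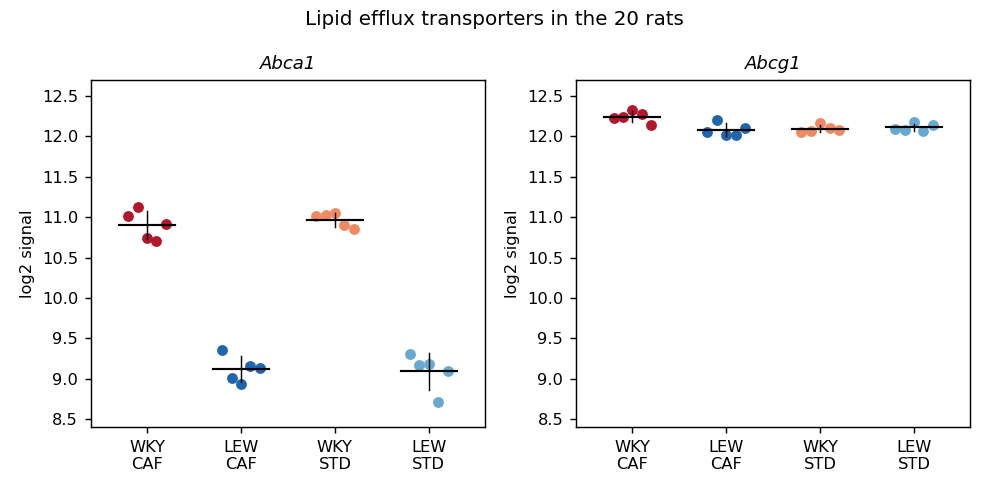
Log2 signal (y axis) of *Abca1* and *Abcg1* in WKY and LEW rats on CAF and on STD (x axis), 1 point per rat, with the group mean (horizontal line) and its SD (vertical line, n = 5). *Abca1* lies between 10.71 and 11.13 in all WKY rats and between 8.71 and 9.36 in all LEW rats, while *Abcg1* lies between 12.01 and 12.32 in all 20 rats.

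*Abcg1* behaved otherwise. It read 12.23, 12.23, 12.32, 12.28 and 12.14 in CAF-fed WKY rats, against 12.06, 12.21, 12.01, 12.01 and 12.11 in CAF-fed LEW rats, and the strains overlapped through LEW rat 2. On STD it read 12.05, 12.06, 12.17, 12.10 and 12.08 in WKY rats, against 12.09, 12.07, 12.18, 12.07 and 12.14 in LEW rats, which overlapped throughout. The strain difference was 0.16 on CAF (1.12-fold, 95% interval 0.07 to 0.26, adjusted *P*=0.0329 in limma) and −0.02 on STD (−0.11 to 0.08, adjusted *P*=0.891). The call on CAF was lost in 15 of 36 alternatives, with adjusted *P*-values of up to 0.721. Leaving out any of WKY rats 1 to 4 or LEW rats 1, 3 or 4 on CAF ended it (0.14 to 0.16, adjusted *P*=0.0559 to 0.0950), as did quantile normalisation (0.15, adjusted *P*=0.0873) and the covariates of the NK (0.10, adjusted *P*=0.721) and neutrophil markers (0.13, adjusted *P*=0.422). The monocyte (0.12, adjusted *P*=0.218), erythroid (0.16, adjusted *P*=0.123), T cell (0.13, adjusted *P*=0.328) and platelet covariates (0.13, adjusted *P*=0.157) ended it too. So did a fit of only the 2 CAF groups (0.16, adjusted *P*=0.0905).

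In WKY rats *Abcg1* stood 0.15 higher on CAF than on STD (95% interval 0.05 to 0.24), at an unadjusted *P*=0.00428 that did not pass after adjustment (adjusted *P*=0.306 in limma). In LEW rats the diet difference was −0.03 (−0.13 to 0.07, adjusted *P*=0.975). The diet effect of WKY rats minus the diet effect of LEW rats was 0.18 (adjusted *P*=0.788), so a different diet response of the strains was not shown.

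*Abca1* and *Abcg1* were set beside 18 measured genes, of 21 written down, that act in cholesterol handling or in LXR signalling. On CAF none of the 18 was higher and 1 was lower, and on STD 1 was higher and 1 was lower. The median difference between the strains was −0.03 on CAF and 0.14 on STD, against −0.01 and 0.00 over all probe sets. The LXR genes *Nr1h3* and *Nr1h2* themselves did not pass (−0.07 and −0.04 on CAF, 0.29 and −0.03 on STD, lowest adjusted *P*=0.145 in limma), nor did the LXR targets *Mylip* (0.00 on CAF, −0.05 on STD) and *Apoe* (−0.09 on CAF, 0.02 on STD). These uncalled genes were named outside the naming rule, and values of the other uncalled genes of the list are not given. The lower gene was *Soat1*, which esterifies cholesterol for storage. It averaged 11.03±0.13 in WKY rats on CAF, against 11.46±0.11 in LEW rats on CAF (difference −0.43, adjusted *P*=9.57e-05), and 11.28±0.06 in WKY rats on STD, against 11.48±0.08 in LEW rats on STD (−0.20, adjusted *P*=0.0451, SD, *n*=5 each). *Npc2*, a lysosomal cholesterol carrier, was higher in WKY rats on STD (10.88±0.17, against 10.61±0.12 in LEW rats, difference 0.27, adjusted *P*=0.0232). On STD the call of *Soat1* was lost when any of 13 single rats was left out (adjusted *P* of up to 0.110) and that of *Npc2* when any of 4 was (up to 0.0654). With the neutrophil covariate *Npc2* gave 0.15 (adjusted *P*=0.856) and *Soat1* −0.30 on STD (adjusted *P*=0.325). The calls on STD were also lost with the NK and platelet covariates for both genes, with the T cell covariate for *Npc2*, and with the erythroid, B cell and heat shock covariates for *Soat1*. On CAF *Soat1* was lost only with the NK marker covariate (−0.39, adjusted *P*=0.0811).

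**Figure D2:**
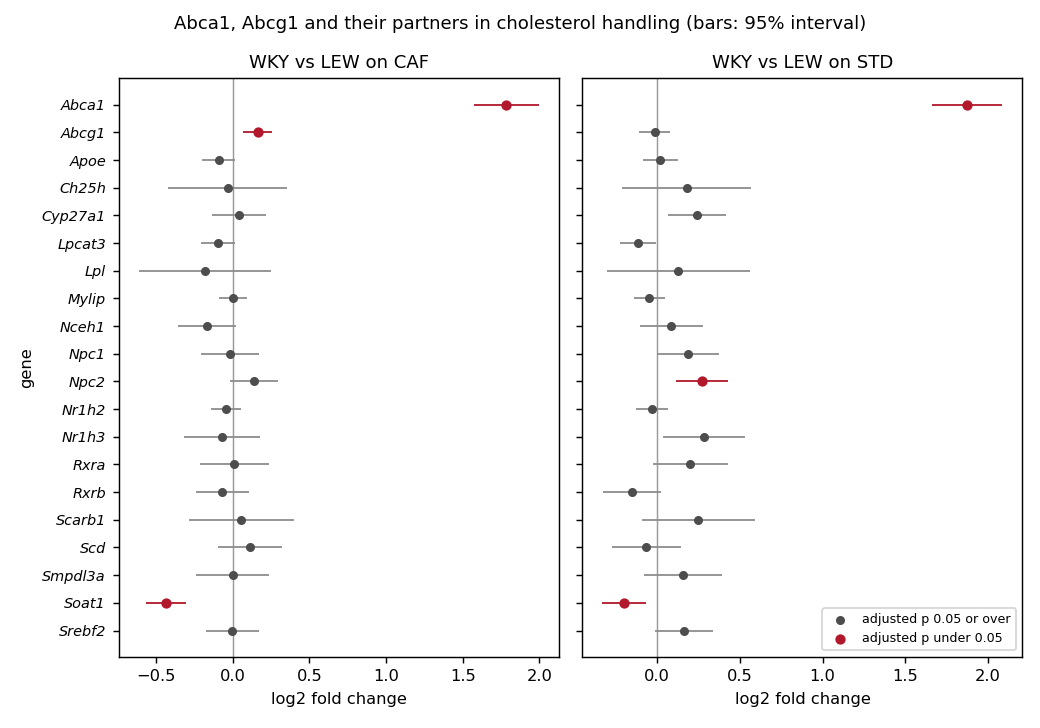
Strain difference (log2 fold change of WKY over LEW rats, x axis) of *Abca1*, *Abcg1* and 18 genes of cholesterol handling (y axis), on CAF (left) and on STD (right), with points for the estimates, bars for the 95% interval and red for an adjusted p under 0.05 in limma. *Abca1* stands at 1.78 and 1.88, far to the right of every partner, and *Soat1* lies left of 0 on both diets.

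*Abcg3* and *Abcg3l1* are rodent copies in subfamily G that lie on chromosome 14. *Abcg3* read 6.90, 7.26, 7.31, 7.14 and 7.06 in CAF-fed WKY rats, against 6.67, 6.60, 6.49, 6.48 and 6.35 in CAF-fed LEW rats. On STD it read 7.19, 7.14, 6.83, 7.13 and 6.99 in WKY rats, against 6.55, 6.45, 6.91, 6.59 and 6.57 in LEW rats. The strains did not overlap on CAF, and on STD they overlapped only because LEW rat 3 stood above WKY rat 3. The difference was 0.62 on CAF (1.53-fold, 95% interval 0.42 to 0.81, adjusted *P*=1.34e-04 in limma) and 0.44 on STD (1.36-fold, 0.25 to 0.63, adjusted *P*=0.00285).

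*Abcg3l1* read 5.66, 5.90, 5.96, 5.74 and 5.70 in CAF-fed WKY rats, against 5.19, 5.26, 5.31, 5.27 and 5.00 in CAF-fed LEW rats. On STD it read 6.07, 5.87, 5.83, 5.89 and 6.01 in WKY rats, against 5.22, 5.36, 5.15, 5.45 and 5.36 in LEW rats. All WKY rats stood above all LEW rats, by 0.59 on CAF (95% interval 0.43 to 0.74, adjusted *P*=1.81e-05 in limma) and 0.62 on STD (1.54-fold, 0.47 to 0.78, adjusted *P*=6.93e-06). *Abcg3l1* lay below the median of all values (6.86) in all 20 arrays and did not pass the filter on low signal. The third copy analysed, *Abcg3l3*, did not differ detectably between the strains (0.03 on CAF, adjusted *P*=0.903, and 0.01 on STD, adjusted *P*=0.952). RefSeq also lists the copies *Abcg3l2* and *Abcg3l4*, which were not analysed here. A probe set shared by several of the copies, which is not a member, averaged 9.05±0.10 in CAF-fed WKY rats and 8.87±0.13 in CAF-fed LEW rats (difference 0.18, adjusted *P*=0.154). On STD this shared probe set averaged 9.04±0.13 in WKY rats and 8.99±0.08 in LEW rats (difference 0.05, adjusted *P*=0.762). With the NK marker level as a covariate *Abcg3l1* no longer passed (0.46 on both diets, adjusted *P*=0.0696 on CAF and 0.206 on STD), nor did *Abcg3* on STD (0.47, adjusted *P*=0.406), but that level does not overlap between the strains, so the level and the strain cannot be told apart. The neutrophil covariate also ended the call of *Abcg3* on STD (0.63, adjusted *P*=0.0763), and how far the probes of 1 copy read another was not tested.

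The remaining calls were of 1.15-fold to 1.19-fold. *Abcg2*, *Abcc8* and *Abcc2* lay below the median of all values (6.86) in all 20 arrays and did not pass the filter on low signal. *Abcg2* read 5.38, 5.70, 5.61, 5.51 and 5.54 in WKY rats on STD, against 5.21, 5.30, 5.31, 5.42 and 5.33 in LEW rats on STD, with an overlap between WKY rat 1 and LEW rat 4. The difference was 0.23 (95% interval 0.11 to 0.35, adjusted *P*=0.0102 in limma), while on CAF it was 0.11 (adjusted *P*=0.303). The call on STD was lost with the neutrophil (0.05, adjusted *P*=0.954), T cell (0.15, adjusted *P*=0.326) and NK covariates (0.10, adjusted *P*=0.904).

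*Abcc8* read 6.61, 6.50, 6.81, 6.85 and 6.67 in WKY rats on STD, against 6.52, 6.50, 6.44, 6.55 and 6.44 in LEW rats on STD, and WKY rat 2 lay within the LEW range. The difference was 0.20 (95% interval 0.08 to 0.32, adjusted *P*=0.0343 in limma). On CAF it was −0.10 (adjusted *P*=0.423). The call on STD was lost without any of WKY rats 3, 4 or 5 or LEW rats 1, 2, 3 or 5 on STD (0.16 to 0.21, adjusted *P*=0.0510 to 0.0978), without the 4 arrays of high heat shock signal (0.21, adjusted *P*=0.110), when only those groups were fitted (adjusted *P*=0.107) and with 5 marker covariates. Among these, the NK covariate gave 0.08 (adjusted *P*=0.935) and the neutrophil covariate 0.32 (adjusted *P*=0.222). The pores of ATP-sensitive potassium channels that *Abcc8* and *Abcc9* regulate were both measured, and neither passed in a strain comparison.

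*Abcf2* read 9.77, 9.62, 9.63, 9.74 and 9.60 in WKY rats on STD, against 9.92, 9.88, 9.97, 9.88 and 9.94 in LEW rats on STD. All WKY rats stood below all LEW rats, with a difference of −0.25 (95% interval −0.35 to −0.14, adjusted *P*=0.00285 in limma). On CAF the difference was −0.16 and did not pass (adjusted *P*=0.0738). The other probe set of *Abcf2* gave −0.16 on STD and did not pass (adjusted *P*=0.0918), and neither did the first with the neutrophil (−0.12, adjusted *P*=0.795), T cell (−0.17, adjusted *P*=0.164) or NK covariate (−0.12, adjusted *P*=0.822).

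*Abcc2* read 5.73, 5.68, 5.81, 5.86 and 5.81 in CAF-fed WKY rats, against 6.03, 5.93, 5.87, 6.15 and 6.16 in CAF-fed LEW rats, without overlap. The difference was −0.25 (95% interval −0.40 to −0.10, adjusted *P*=0.0330 in limma) and on STD −0.13 (adjusted *P*=0.312). The call was lost without any of WKY rats 1, 2 or 5 or LEW rats 1, 4 or 5 on CAF (−0.26 to −0.22, adjusted *P*=0.0535 to 0.0940) and with 7 marker covariates, among them the NK (−0.34, adjusted *P*=0.234) and neutrophil levels (−0.23, adjusted *P*=0.305).

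**Figure D3:**
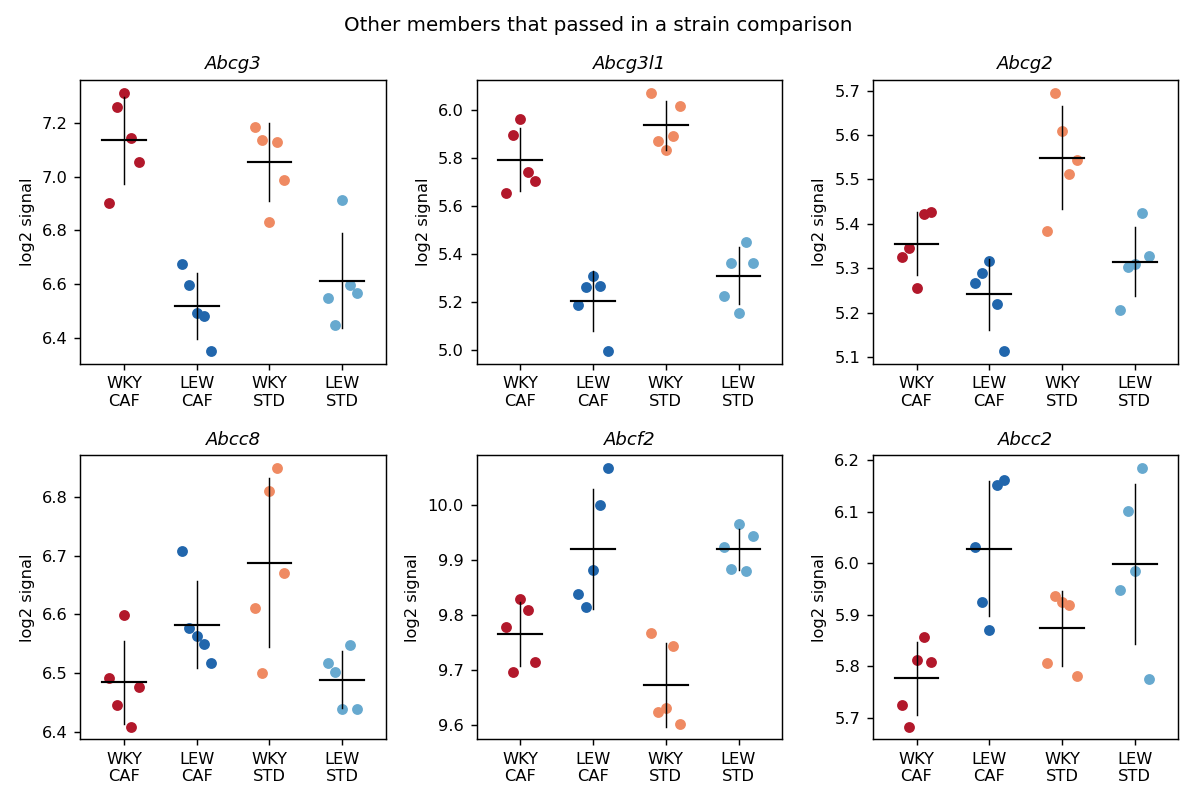
Log2 signal (y axis, 1 scale per gene) of *Abcg3*, *Abcg3l1*, *Abcg2*, *Abcc8*, *Abcf2* and *Abcc2* in WKY and LEW rats on CAF and on STD (x axis), 1 point per rat, with the group mean (horizontal line) and its SD (vertical line, n = 5). *Abcg3l1* separates the strains on both diets, with every WKY rat at 5.66 or above and every LEW rat at 5.45 or below.

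Most of the family did not differ detectably between the strains. The median difference over the 43 members was −0.01 on CAF and 0.01 on STD, against −0.01 and 0.00 over all probe sets, with 20 of 43 differences above 0 on CAF and 22 on STD. The median size of a difference was 0.07 on CAF and 0.09 on STD, against 0.07 and 0.08 over all probe sets. The 95% interval excluded a 1.5-fold change for 40 of 43 members on CAF and for 38 on STD.

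Among the lipid transporters of subfamily A other than *Abca1*, all 9 differences lay between −0.13 and 0.13. They include *Abca7*, which handles phospholipid in phagocytes (−0.03 on CAF, −0.06 on STD), *Abca3*, the surfactant lipid transporter (−0.08 on CAF, −0.11 on STD), and *Abca2* (0.03 on CAF, −0.01 on STD). *Abca5*, a lysosomal lipid transporter, changed sign between the diets (0.13 on CAF, adjusted *P*=0.247, and −0.13 on STD, adjusted *P*=0.212). None of these passed.

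In subfamily B no member passed. The multidrug transporters *Abcb1a* and *Abcb1b* gave 0.24 and 0.03 on CAF and 0.11 and 0.13 on STD (lowest adjusted *P*=0.180 in limma). The mitochondrial members *Abcb8* and *Abcb10* gave −0.18 and 0.09 on CAF and −0.20 and 0.41 on STD, the lowest adjusted *P* being that of *Abcb8* on STD (0.0738). Of 14 measured genes of mitochondrial iron and haem handling, only *Alas1*, the rate-limiting enzyme of haem synthesis outside the erythroid lineage, passed. It averaged 11.31±0.18 in WKY rats on CAF, against 10.82±0.15 in LEW rats on CAF (difference 0.49, adjusted *P*=0.0123), and 11.65±0.27 in WKY rats on STD, against 10.94±0.19 in LEW rats on STD (0.71, adjusted *P*=3.46e-04). With the neutrophil covariate the difference of *Alas1* was 0.13 on CAF (adjusted *P*=0.760) and 0.12 on STD (adjusted *P*=0.907). Its call on CAF was also lost with the erythroid (0.43, adjusted *P*=0.103), T cell (0.34, adjusted *P*=0.304) and platelet covariates (0.35, adjusted *P*=0.103).

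Of the ABC proteins under other symbols, 3 were read beside the members. *Tap1*, which with *Tap2* pumps peptides into the endoplasmic reticulum for class I antigen presentation, averaged 9.77±0.11 in WKY rats on CAF, against 9.24±0.21 in LEW rats on CAF (difference 0.52, adjusted *P*=8.69e-04 in limma). On STD it averaged 9.83±0.13 in WKY rats, against 9.43±0.15 in LEW rats (0.40, adjusted *P*=0.00710). *Tap2* (0.08 on CAF, 0.04 on STD) and *Cftr* (−0.06 on CAF, −0.04 on STD), the chloride channel, did not pass, nor did any of 6 genes of peptide loading. With the neutrophil covariate *Tap1* no longer passed on CAF (0.33, adjusted *P*=0.151) or on STD (0.08, adjusted *P*=0.950). The T cell covariate also ended both calls (0.33, adjusted *P*=0.0989 on CAF, and 0.20, adjusted *P*=0.363 on STD), and the platelet covariate that on STD (0.35, adjusted *P*=0.0950).

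In subfamily C the conjugate exporter *Abcc1* gave 0.00 on CAF and −0.09 on STD, *Abcc3* 0.12 and 0.26, and the cyclic nucleotide exporters *Abcc4* and *Abcc5* −0.04 and −0.21 on CAF and −0.10 and −0.21 on STD, none of which passed (lowest adjusted *P*=0.140 in limma). The other probe sets of *Abcc4* and of *Abcc9* differed from the main ones in direction in some comparisons. On CAF the probe sets of *Abcc4* gave −0.04, 0.04 and −0.03, and on STD those of *Abcc9* gave 0.02 and −0.11. None of 12 glutathione and drug metabolism genes passed on either diet.

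The peroxisomal fatty acid transporters *Abcd2* and *Abcd3* and the lysosomal cobalamin transporter *Abcd4* gave −0.02, 0.08 and −0.07 on CAF and 0.10, −0.09 and −0.07 on STD, and none of them or of 9 peroxisome partners passed. *Abce1*, which splits ribosomes after termination, gave −0.12 on CAF and −0.19 on STD (adjusted *P*=0.194 in limma). Of 10 ribosome recycling partners *Etf1*, a termination factor, was higher in WKY rats on STD (0.17, adjusted *P*=0.0292) and *Eif2s3* of the initiation complex was lower (−0.17, adjusted *P*=0.0208). Those calls were lost when any of 5 single rats was left out for *Etf1* (adjusted *P* of up to 0.0773) and any of 4 for *Eif2s3* (up to 0.0643). The call of *Etf1* was also lost with the replicate block (0.17, adjusted *P*=0.0512), with each array centred on its median (0.14, adjusted *P*=0.0611) and with quantile normalisation (0.15, adjusted *P*=0.0537). With the neutrophil covariate *Etf1* gave 0.14 (adjusted *P*=0.734) and *Eif2s3* −0.02 (adjusted *P*=0.976). With the NK marker level as a covariate, every call of a partner gene named here was lost on both diets (adjusted *P*=0.0811 for *Soat1* on CAF to 0.937 for *Eif2s3* on STD), *Tap1* and *Alas1* included. That level does not overlap between the strains, so in this fit the level and the strain cannot be told apart. In subfamily G the sterol exporters *Abcg5* and *Abcg8* gave −0.11 and −0.07 on CAF and −0.01 and 0.08 on STD and did not pass.

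**Figure D4:**
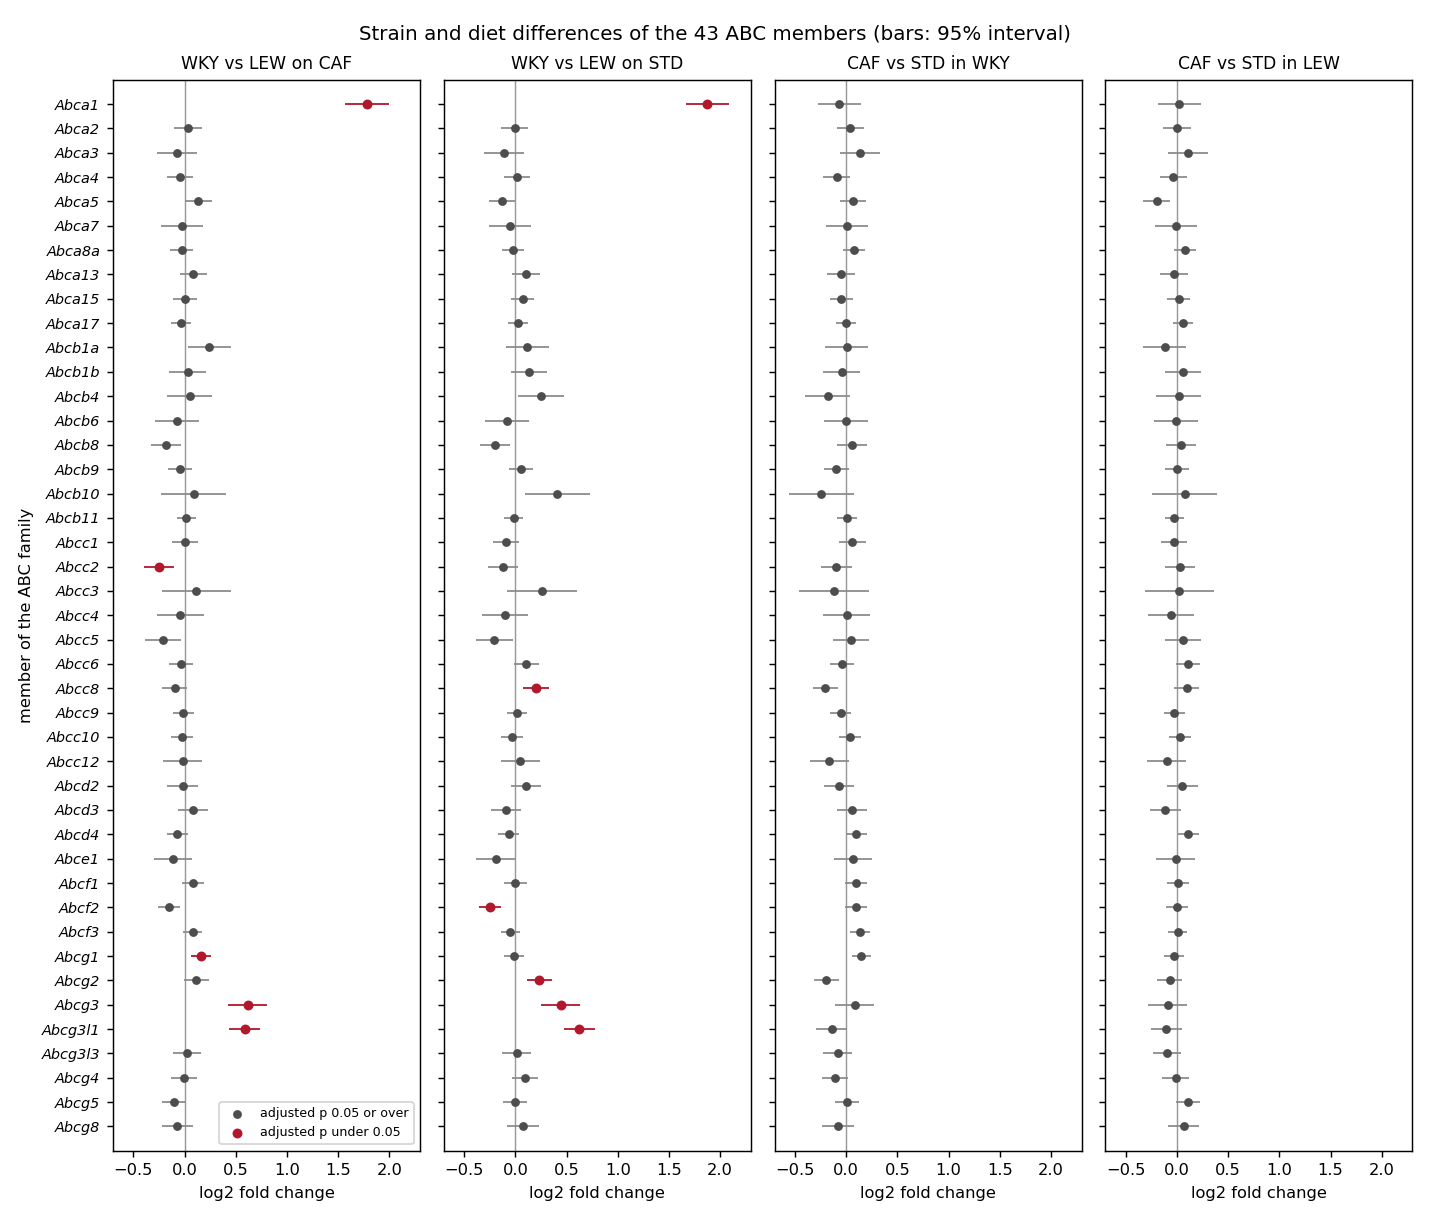
Log2 fold change (x axis) of each of the 43 members (y axis, by subfamily) for WKY over LEW rats on CAF and on STD and for CAF over STD in WKY and in LEW rats, with bars for the 95% interval and red for an adjusted p under 0.05 in limma. In the strain panels 5 and 6 members are red, with *Abca1* alone beyond 1, and in the diet panels none is.

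The comparison of CAF with STD within a strain asks how the diet itself changes the members. In WKY rats no member passed in limma (0 of 43, against 0% of all probe sets), and 4 had an unadjusted *P* under 0.05 (9.30%, against 8.81% of all probe sets). These were *Abcg1* and *Abcf3* higher on CAF, *Abcc8* and *Abcg2* lower, and all 4 were also under 0.01 (9.30%, against 2.64%). *Abcc8* differed by −0.20 (95% interval −0.33 to −0.08, adjusted *P*=0.276) and *Abcg2* by −0.19 (−0.31 to −0.07, adjusted *P*=0.289). *Abcf3*, of the ribosome-associated subfamily F, is named here after its values were seen, as the only member whose diet groups did not overlap (2.07% of all probe sets did not). It read 10.34, 10.38, 10.40, 10.43 and 10.45 in WKY rats on CAF, against 10.26, 10.23, 10.25, 10.33 and 10.27 in WKY rats on STD (0.13, adjusted *P*=0.350). The 95% interval excluded a 1.5-fold change for all 43 members.

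In LEW rats no member passed in limma either (0 of 43, against 0% of all probe sets), and 2 had an unadjusted *P* under 0.05 (4.65%, against 5.46%), of which 1 was under 0.01 (2.33%, against 1.07%). No member had diet groups without overlap, as 0.989% of all probe sets had. *Abca5* read 6.14, 6.05, 6.14, 6.06 and 5.86 in LEW rats on CAF, against 6.14, 6.41, 6.11, 6.29 and 6.30 in LEW rats on STD, which overlapped. Its difference was −0.20 (95% interval −0.33 to −0.07, adjusted *P*=0.884), that of *Abcd4* was 0.11 (adjusted *P*=0.904) and that of *Abcg5* was 0.11 (adjusted *P*=0.922). The 95% interval excluded a 1.5-fold change for all 43 members here too.

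The interaction, which subtracts the diet effect of LEW rats from the diet effect of WKY rats, tests whether the strains respond differently. No member passed in limma (0 of 43, against 0% of all probe sets), and 3 had an unadjusted *P* under 0.05 (6.98%, against 5.95%), of which 2 were under 0.01 (4.65%, against 1.30%). They were *Abcc8* (−0.30, 95% interval −0.47 to −0.12, adjusted *P*=0.707), *Abca5* (0.27, 0.08 to 0.45, adjusted *P*=0.743) and *Abcg1*. No partner gene passed for a diet or for this difference.

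Within groups the members varied about as much as other probe sets. The pooled SD within groups was 0.06 to 0.28 over the members, with a median of 0.10, against 0.11 over all probe sets, and it was highest for *Abcc3* and *Abcb10*. Over the deviations of the 20 arrays from their group means, some members followed markers of monocytes or of other blood cells. These correlations are descriptions, since the points share arrays, normalisation and cell make-up. *Abcc4*, an exporter of cyclic nucleotides that platelets also carry, and *Abcb6*, a porphyrin transporter, both followed the mean level of the 4 platelet markers measured of 8 (*r*=0.85 for each). LEW rat 4 on STD carried part of that, with a platelet level of 12.92, *Abcc4* at 9.73 and *Abcb6* at 6.77, and without it *r* was 0.64 for *Abcc4* and 0.70 for *Abcb6*.

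*Abcb10* followed the 11 neutrophil markers (*r*=0.76, and 0.67 without WKY rat 1 on STD), *Abcc3* the 13 monocyte markers (*r*=0.73, at least 0.67 without any 1 array) and *Abcg2* the 11 erythroid markers (*r*=0.73, at least 0.69). Over the arrays without centring, *r* for *Abcg2* was −0.18. *Abcb6* also followed the erythroid markers (*r*=0.69, and 0.53 without LEW rat 4 on STD). These members were picked after the correlations of all members with each marker list were seen. Others ran against a list, such as *Abcf1* with the monocyte markers (*r*=−0.69). Of the 903 pairs of members, *Abcb6* and *Abcc4* (*r*=0.88, and 0.78 without LEW rat 4 on STD) and *Abcb10* and *Abcc3* (*r*=0.84, at least 0.81) are named after their values were seen.

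**Figure D5:**
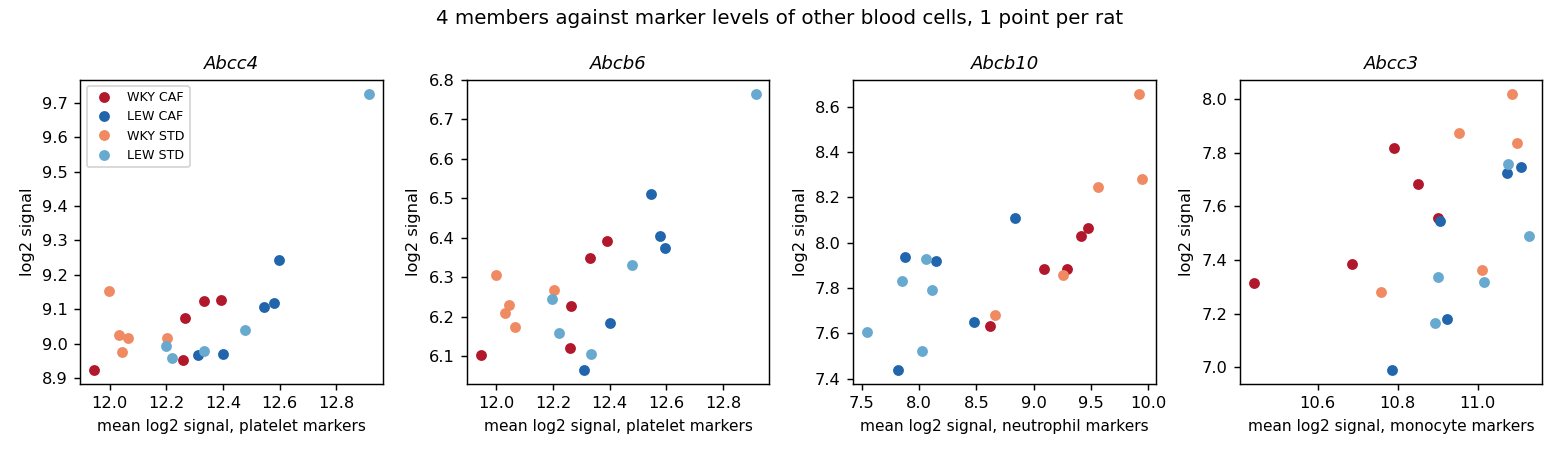
Log2 signal (y axis) of *Abcc4*, *Abcb6*, *Abcb10* and *Abcc3* against the mean log2 signal of platelet, neutrophil or monocyte markers (x axis), 1 point per rat, coloured by group. The rat at the upper right of both platelet panels is LEW rat 4 on STD, at a platelet level of 12.92. The points are not centred on their group means, unlike the deviations behind the *r* in the text. Over the points as drawn *r* is 0.71 for *Abcc4*, 0.74 for *Abcb6*, 0.74 for *Abcb10* and 0.47 for *Abcc3*.

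By the same measure, the genes most like *Abca1* among 14496 were *Lzic* (*r*=0.86), *Tlr7* (0.84), *Zc3h12c* (0.83), *Tfec* (0.81) and *Smurf1* (0.80). Those most like *Abcg1* were *Tub* (*r*=0.85), *Jag2* (0.81), *Anks6* (0.80), *Pard6a* (0.79) and *Trafd1* (0.78). The lists share no gene.

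Levels of different members cannot be ranked against each other, since each probe set has its own brightness. The members of the highest mean signal over the 20 arrays were *Abcg1* (12.13), *Abce1* (10.57) and *Abcc5* (10.40), and those of the lowest were *Abca15* (4.75), *Abcd2* (4.83) and *Abca8a* (5.07).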

How the data were processed

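Blood cell RNA of each of 20 male rats was read on a Rat Gene ST array with a single dye. The table that the authors deposited holds a log2 signal for every probe set, already normalised between arrays. The methods call these RMA values and the submitters' processing notes MAS5 values, with the version not given in the sources used here. Values were used as deposited. Groups came from the sample labels. Gene names came from the platform annotation, in which 15209 probe sets carried 1 symbol, and from the rat RefSeq tables (assembly GRCr8). All 43 members matched RefSeq.

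limma 3.58.1 in R 4.3.3 was fitted with 1 mean per group over all 28826 probe sets and 20 arrays, without a trend, with 16 residual and 3.67 prior degrees of freedom. *P*-values were Benjamini–Hochberg adjusted over all probe sets of a comparison, and a member was called at an adjusted *P* under 0.05. Depth here is signal over background, and the number of arrays limits the precision. No scan date or slide was given in the sources used here.

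The members, the lists and the alternatives were chosen with earlier results of these data known. Named members were *Abca1* and *Abcg1*, every called member, those of the 3 highest and 3 lowest mean signals, the 3 of smallest *P* where fewer than 3 were called, those whose probe sets differed in direction, called partners, and the 5 genes most like *Abca1* and *Abcg1*. Further members and uncalled partners were named outside this rule, as description. The fit was repeated with other scaling, filters, probe sets, weights, marker covariates and single arrays left out.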

Additional observations from a re-analysis of the deposited data

Results flagged for a closer look

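Of the 172 groups of 5 rats (43 members in 4 groups), 16 held 1 rat far from the other 4, where chance gives about 1 in 20 groups, and each is given here as a value without an explanation.

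In LEW rats on STD, rat 4 stood apart in 3 members. It read 9.73 for *Abcc4* (8.96 to 9.04 in the other 4), 8.85 for *Abca7* (8.18 to 8.36) and 8.44 for *Abcb1a* (8.57 to 8.60). In the same group rat 1 read 4.85 for *Abca15* (4.67 to 4.72), rat 3 read 4.94 for *Abcd2* (4.70 to 4.76) and rat 5 read 8.58 for *Abca3* (8.12 to 8.21).

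In WKY rats on STD, rat 2 read 9.15 for *Abcc4* (8.98 to 9.02) and 8.64 for *Abca2* (8.48 to 8.53), rat 1 read 5.08 for *Abca13* (5.42 to 5.52) and rat 4 read 5.91 for *Abcg8* (5.66 to 5.72).

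In WKY rats on CAF, rat 1 read 8.37 for *Abcd3* (8.68 to 8.78) and 5.99 for *Abcg5* (5.76 to 5.81). In LEW rats on CAF, rat 2 read 5.72 for *Abcc12* (5.82 to 5.87) and 7.50 for *Abcd4* (7.69 to 7.77), rat 3 read 6.02 for *Abcb11* (5.86 to 5.89) and rat 5 read 5.03 for *Abcg3l3* (5.12 to 5.14). None of these members passed in a strain or diet comparison.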

How the results depend on the processing

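For scaling, filter and covariates, a change of the count is listed here only where it was more than 1.5-fold. The count of called members between the strains on CAF (5) changed to 3 when only probe sets above the overall median in at least 5 arrays were tested and to 3, 3, 2 and 3 with the neutrophil, T cell, NK or platelet marker level as a covariate. Smaller changes occurred, since the monocyte and the erythroid covariate each ended the CAF calls of *Abcc2* and *Abcg1*, and quantile normalisation that of *Abcg1*. On STD (6) it changed to 3 with the filter, 2 with the neutrophil and 1 with the NK covariate. Under the filter *Abcg3* was among the called members on both diets. It passed the filter only through WKY rats, the strain in which it is higher, so these counts do not support its call. With single rats left out the count was 3 to 6 on CAF, with 3 without WKY rat 1 or 2 or LEW rat 1 or 4, and 5 to 8 on STD. For the diet in either strain and the interaction it stayed at 0. At an unadjusted *P* under 0.01 the diet counts were 4 in WKY and 1 in LEW rats, and the interaction count was 2. Without the 4 arrays of high heat shock signal 7 members were called on CAF, 5 of them shared, and 8 on STD, 5 of them shared and *Abcc8* lost. These arrays and the covariates of the neutrophil, T, B, NK and platelet markers were chosen after seeing the data.

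Differences near 0 that did not pass changed sign. The strain difference of *Abcg1* on STD (−0.02) became 0.0025 without LEW rat 3 on STD (−0.0343 to 0.0025 over single rats left out) and 0.0063 without the arrays of high heat shock signal. The diet difference of *Abca1* in WKY rats (−0.07) became 0.0169 with the monocyte and 0.0079 with the platelet covariate. In LEW rats (0.02) it became −0.0270 with array weights, −0.0051 with the NK covariate, −0.0366 without LEW rat 1 on CAF and −0.0735 without LEW rat 4 on STD (−0.0735 to 0.0758 over single rats left out). Its interaction (−0.09) became 0.0047 without that last rat (−0.148 to 0.0047). The cause was not tested. With the replicate block the counts were 5 on CAF and 7 on STD. The mean correlation of the deviations of rats of equal replicate number was −0.01 to 0.16. It was not set against that of rats of unlike number, so whether the numbers pair the rats was not tested. The block ended no call of a member, but it ended that of the partner *Etf1* on STD (adjusted *P*=0.0512). Other scaling moved the median of all probe sets by at most 0.02.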
